A study of Mus musculus with 15 samples.

Results

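The 5 ISG15 conjugation genes Isg15, Uba7, Ube2l6, Herc6 and Usp18 were followed in mouse fibrosarcoma tumors injected daily for up to 6 days with poly(I:C). This synthetic copy of double-stranded RNA is a ligand of Toll-like receptor 3. The genes were chosen by name, for their part in the pathway, as 5 of 32544 entries in the count table. All 5 passed the filter on low counts, which 15494 genes passed. The tumors grew under the skin of wild-type female BALB/c mice from WEHI-164, a mouse fibrosarcoma line, so all groups came from a single line. Day 0 tumors were untreated, and tumors injected daily with poly(I:C) were harvested on day 1, 3, 5 or 7 after the first dose. There were 3 tumors for each of the 5 days, 15 in all. Per the labels the dose was 1 µg in 25 µL, for a planned 6 doses. The study's methods also give 1 µg daily, although a legend of the study gives a higher daily amount, so the dose is uncertain. Day 7 came after the planned daily doses, so the end of dosing and the time passed cannot be told apart there. A vehicle-injected group was not analysed here, so injection and poly(I:C) cannot be told apart.

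ISG15 is a ubiquitin-like protein that interferon induces strongly. Like ubiquitin, it is attached to target proteins by a chain of an E1 activating enzyme (Uba7), an E2 conjugating enzyme (Ube2l6) and an E3 ligase, and in the mouse Herc6 is the main ligase. Usp18 is the protease that takes ISG15 off again, and it also binds the interferon receptor chain Ifnar2 and dampens its signalling. Type I interferon acts through the kinases Jak1 and Tyk2 on ISGF3, a complex that includes Stat2 and Irf9 and binds the interferon-stimulated response element in the promoters of its target genes. Tumors were sequenced whole, so fewer cells of a type and less RNA per cell cannot be told apart.

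The promoters are shown because ISGF3 acts through such elements. RefSeq promoters of GRCm38.p6 were given for 4 of the 5 members, and Usp18 was not among them. Each line below is the 150 bases before the annotated start, 5′ to 3′ on the strand of the gene. In Isg15, capitals mark matches to the core of the response element, searched as 2 copies of GAAA with any 2 bases between them. In Uba7 they mark AANNGAAA, a shorter motif of interferon regulatory factors that every such core contains, here on the opposite strand. Both strands were searched. The windows are chr4:156200819-156200968 on the minus strand for Isg15, and on the plus strand chr9:107975417-107975566 for Uba7, chr2:84798678-84798827 for Ube2l6 and chr6:57580842-57580991 for Herc6.
Isg15: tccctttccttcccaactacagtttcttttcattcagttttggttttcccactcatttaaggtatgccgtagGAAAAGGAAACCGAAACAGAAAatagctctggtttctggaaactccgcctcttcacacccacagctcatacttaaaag
Uba7: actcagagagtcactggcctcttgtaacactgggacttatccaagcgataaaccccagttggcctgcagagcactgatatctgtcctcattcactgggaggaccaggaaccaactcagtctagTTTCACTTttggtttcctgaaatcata
Ube2l6: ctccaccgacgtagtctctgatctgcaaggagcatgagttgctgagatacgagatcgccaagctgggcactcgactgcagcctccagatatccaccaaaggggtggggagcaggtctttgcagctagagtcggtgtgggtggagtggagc
Herc6: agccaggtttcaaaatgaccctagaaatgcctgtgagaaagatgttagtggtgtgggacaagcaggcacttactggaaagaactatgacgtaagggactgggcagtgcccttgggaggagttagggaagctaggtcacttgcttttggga

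In Isg15, 3 overlapping matches to the core ran from 78 to 57 bases before the start. The shorter motif AANNGAAA matched there 4 times, 3 of them within those cores. Over the 250 bases before the start, 978 of 32851 RefSeq promoters (2.98%) held the core on either strand. Uba7 held no core and 1 shorter motif, from 27 to 20 bases before the start, which 6999 promoters held (21.3%). Neither motif was found in the windows of Ube2l6 and Herc6, which says only that these letters were not in those 250 bases. The RefSeq start lay 62 bases downstream of the GENCODE gene start for Uba7, so its shorter motif lay inside the GENCODE gene. For Herc6 the RefSeq start lay 8 bases upstream of the GENCODE start, and for Isg15 and Ube2l6 it was at the same base.

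By GENCODE release M21 on GRCm38, Isg15 (ENSMUSG00000035692.6) lies at chr4:156199424-156200818 on the minus strand, and its principal transcript of 756 bases has 2 exons. Uba7 (ENSMUSG00000032596.14) lies at chr9:107975505-107984060 on the plus strand, with 3195 bases in 24 exons. Ube2l6 (ENSMUSG00000027078.14) is at chr2:84798828-84810335 on the plus strand, with 1560 bases in 4 exons. Herc6 and Usp18 share chromosome 6 and the plus strand. Herc6 (ENSMUSG00000029798.11) spans chr6:57581000-57664632, with 4767 bases in 23 exons, and Usp18 (ENSMUSG00000030107.10) spans chr6:121245906-121270917, with 1771 bases in 11 exons. Counts were exonic and summed over transcripts. Of the 31-base words that kallisto, the authors' counting tool, uses by default, transcripts of other genes also held 13.1% for Isg15, 5.31% for Uba7, 20.5% for Ube2l6, 25% for Herc6 and 5.51% for Usp18. Part of the Herc6 count is therefore uncertain, because Gm45193 holds those words and had no row of its own in the table. The span of Gm45193, any introns included, reaches 13 exons of Herc6 on the same strand. Gm20661, which overlaps the end of Uba7, had between 4 and 33 counts per tumor. The span of an antisense gene, Gm44148, any introns included, reaches 8 exons of Usp18, and no source used here says whether strand was used in counting.

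Libraries held 23.7 to 31.9 M (mega) counts, and a count of 0 would have allowed up to 0.0972 to 0.125 CPM (counts per mega-count of library after TMM scaling, a correction for differing library composition). The members lay far above that in all 15 tumors. A single tumor, day 3 replicate 1, stood apart from the rest, at 144 on the first principal component of log2 CPM against -77.0 to 45.1 for the others. Its 8 skeletal muscle markers summed to 3310 CPM, against 163 and 60.7 CPM in the other day 3 tumors, and its 5 leukocyte markers to 3036 CPM, against 1413 and 1432 CPM. All 7 mesenchymal markers were detected on every day, at a summed 8827 to 29014 CPM. Results that it moved most are also given without it.

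The count of the modifier itself, Isg15, was lowest before treatment. It was 35.1, 43.1 and 37.2 CPM in the untreated tumors and 98.2, 74.9 and 269 CPM on day 1. On day 3 it was 56.1, 166 and 85.5 CPM. All treated tumors of both days lay above the untreated ones, and day 1 replicate 3 and day 3 replicate 2 were the highest of their days. On day 5 the values were 45.3, 66.7 and 49.4 CPM, and on day 7 they were 45.8, 43.8 and 48.2 CPM. The day 7 tumors still lay just above the highest untreated tumor, by less than 1 CPM for the lowest of them. The coefficient of variation between tumors was 10.7% before treatment, 71.8% on day 1, 55.5% on day 3 and 4.87% on day 7.

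Uba7, the activating enzyme, started at 42.6, 68.3 and 62.4 CPM. Its values were 74.0, 92.3 and 212 CPM on day 1 and 208, 153 and 123 CPM on day 3. It was the only member whose mean was higher on day 3 (162 ± 43.0 CPM, SD, n = 3) than on day 1 (126 ± 75.1 CPM), a difference well inside the spread. The highest day 3 value was in replicate 1, the tumor that stood apart, in which Isg15 was the lowest of its day. On day 5 Uba7 was 120, 101 and 56.5 CPM, and on day 7 it was 45.2, 76.9 and 42.0 CPM, within and around the untreated range.

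Ube2l6, the conjugating enzyme, was at 61.0, 80.9 and 72.8 CPM in the untreated tumors. Treated tumors had 107, 126 and 213 CPM on day 1 and 96.2, 161 and 118 CPM on day 3. The groups did not overlap with day 0, and the order of tumors was that of Isg15 on day 3 (replicate 2 highest, replicate 1 lowest). Day 5 tumors had 112, 103 and 80.3 CPM and day 7 tumors 85.4, 85.1 and 64.8 CPM, and both days overlapped with day 0.

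The ligase Herc6 was at 42.9, 51.4 and 45.0 CPM before treatment. It was at 67.6, 77.3 and 144 CPM on day 1 and 76.9, 103 and 77.9 CPM on day 3. Its day 3 tumors agreed more closely than those of day 1, with coefficients of variation of 17.3% and 43.2%. It was at 58.9, 68.3 and 49.9 CPM on day 5 and 42.4, 48.3 and 39.7 CPM on day 7, where 2 of 3 tumors lay below the lowest untreated one.

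Usp18, the protease, had the lowest counts of the 5 before treatment, at 23.4, 32.0 and 26.2 CPM. On day 1 it had 61.8, 48.7 and 157 CPM, and on day 3 it had 42.8, 99.6 and 60.0 CPM. The tumors ranked as they did for Isg15 on both days. Values on day 5 were 29.6, 46.7 and 36.7 CPM, and on day 7 they were 33.6, 29.0 and 33.0 CPM, overlapping with day 0 on both days.

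**Figure D1:**
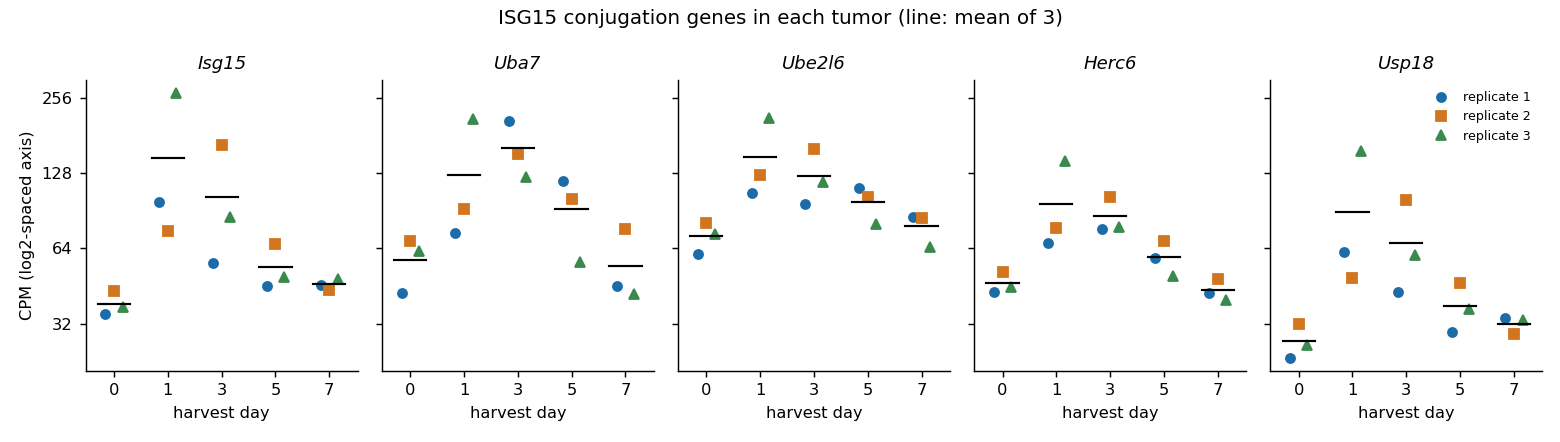
CPM (log2-spaced vertical axis) of each ISG15 conjugation gene by harvest day, with 1 point per tumor, a shape for each replicate number and a line at the mean of 3 tumors. All day 1 and day 3 points lie above the day 0 points of the same gene, and day 1 replicate 3 is the highest day 1 tumor in every panel.

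Set against transcript length, the order of levels in untreated tumors was Isg15 at 50.9 ± 5.47 CPM per kilobase, Ube2l6 at 45.9 ± 6.43, Uba7 at 18.1 ± 4.23, Usp18 at 15.4 ± 2.47 and Herc6 at 9.73 ± 0.932 CPM per kilobase (SD, n = 3). Isg15 and Ube2l6 lay within their spread of each other, as did Uba7 and Usp18. On day 1 the level per kilobase was 195 ± 140 for Isg15 and 95.2 ± 36.2 for Ube2l6. Usp18 was then at 50.4 ± 33.5 and Uba7 at 39.5 ± 23.5 CPM per kilobase, again not separable, and Herc6 stayed last at 20.2 ± 8.73. The modifier was thus first and its ligase last in the order of means on both days.

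Across the 5 days, the log2 CPM of all 5 members differed between days at an unadjusted p under 0.05. In an exact permutation test over all 1401400 divisions of the 15 tumors into 5 days of 3, the day held 74.9% of the variance of Herc6 (p = 0.00345), 65.4% for Ube2l6 (p = 0.0192) and 65.8% for Usp18 (p = 0.0265). For Uba7 it held 64.7% (exact permutation p = 0.0280) and for Isg15 65.0% (exact permutation p = 0.0293). These are unadjusted p-values of single genes, and the permutation test was run on the members only, so it has no share over all genes. In edgeR's joint test of the 4 treated days, 5 of 5 members and 16.2% of all genes had an unadjusted p under 0.05. After adjustment 0 members and 0% of genes passed that joint test. The permutation p-values set the differences between days against the spread between these tumors only. Legends of the study give 3 mice per group, while the labels do not say that each tumor came from a separate mouse. Leaving out some single tumors took the permutation p of Isg15, Uba7 or Ube2l6 just past 0.05, to at most 0.0725 for Uba7 without day 3 replicate 1, whereas Herc6 stayed at 0.0116 or less. On unlogged CPM, where the high day 1 tumor weighs more, the exact permutation p was 0.117 for Isg15, 0.0528 for Uba7, 0.05003 for Ube2l6, just above the threshold, and 0.0776 for Usp18.

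**Figure D2:**
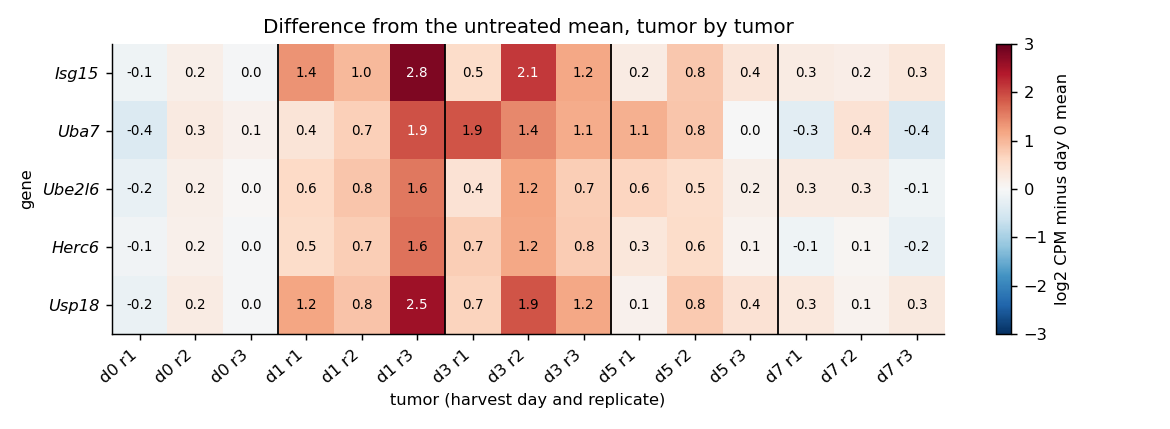
Difference in log2 CPM between each tumor (columns, d for harvest day and r for replicate) and the mean of the 3 untreated tumors, for each member (rows). The 2 darkest columns are day 1 replicate 3 and day 3 replicate 2, and day 3 replicate 1 is the column where Uba7 differs from the other 4 genes.

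The comparison of day 1 with day 0 asked which genes responded a day into treatment. Isg15 was 3.83-fold and Usp18 3.28-fold the untreated level, and Uba7, Herc6 and Ube2l6 were 2.19-fold, 2.08-fold and 2.07-fold. On the log2 scale these were differences of 1.94 ± 0.45 for Isg15, 1.71 ± 0.40 for Usp18, 1.13 ± 0.41 for Uba7, 1.05 ± 0.24 for Herc6 and 1.05 ± 0.26 for Ube2l6 (edgeR, SE). In 5 of 5 members all day 1 tumors lay above all day 0 tumors, against 5.76% of genes tested. None passed edgeR's quasi-likelihood test after Benjamini-Hochberg adjustment, where adjusted p was 1.00 for Uba7 and 0.641 for the other 4, and 0% of all genes passed. At an unadjusted p under 0.05, edgeR counted 5 of 5 members and 3.16% of genes. DESeq2, with a different estimate of the spread, called 4 members and 0.258% of genes, at adjusted p from 0.0102 for Isg15 to 0.0316 for Ube2l6, with Uba7 at 0.518. Without day 1 replicate 3 the edgeR differences were 1.17 for Isg15, 1.02 for Usp18, 0.70 for Ube2l6, 0.64 for Herc6 and 0.53 for Uba7, and DESeq2 called 0 members. DESeq2 also called 0 members without day 0 replicate 1 or day 0 replicate 3.

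On day 3 the order of the members was another. Uba7 led at 2.80-fold the untreated level, followed by Isg15 at 2.67-fold, Usp18 at 2.48-fold, Herc6 at 1.85-fold and Ube2l6 at 1.75-fold. The log2 differences were 1.48 ± 0.41, 1.41 ± 0.44, 1.31 ± 0.40, 0.89 ± 0.24 and 0.80 ± 0.26 in the same order (edgeR, SE). Groups again did not overlap for 5 of 5 members, but 19.4% of genes tested were higher in this way on day 3, so such a pattern was more common among all genes than on day 1. edgeR's adjusted p was 0.115 for each of the 5 members, and 0% of genes passed. At an unadjusted p under 0.05 it counted 5 of 5 members and 30.0% of genes, while DESeq2 called 5 of 5 members and 12.9% of genes. DESeq2 called 0 members when day 0 replicate 1 or 3 was omitted, with 13 and 72 of all genes called, against 2003 with all tumors. It called 2 members without day 3 replicate 1, with 85 genes called, and 2 without day 3 replicate 2, with 3421 genes called. Without day 3 replicate 1 the edgeR difference was 1.71 for Isg15 and 1.26 for Uba7, so that Uba7 no longer led. Without day 3 replicate 2 it fell to 0.88 for Isg15, a move of over 1.5 times, and to 0.92 for Usp18. edgeR called 1 member, Herc6, when day 1 replicate 3 was left out of the shared estimate of spread (adjusted p = 0.0332), with 61 of all genes called.

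Days 1 and 3 were also compared directly. Day 3 minus day 1 was 0.36 for Uba7 and between -0.52 for Isg15 and -0.16 for Herc6 for the other 4, on the log2 scale. The 2 days overlapped in all members. edgeR's adjusted p was 0.451 or more, with 0 members and 0% of genes called and 18.4% of genes, but 0 members, at an unadjusted p under 0.05. DESeq2 called 0 members and 0.181% of genes. The sign for Isg15, Ube2l6, Herc6 and Usp18 turned without day 1 replicate 3, to 0.25, 0.11, 0.25 and 0.29, so these tumors do not order days 1 and 3.

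By day 5 the members were closer to day 0. edgeR gave log2 differences of 0.68 for Uba7, 0.48 for Isg15, 0.47 for Usp18, 0.46 for Ube2l6 and 0.35 for Herc6, with adjusted p of 0.859 or more. Without day 5 replicate 2 they were 0.30 for Isg15, 0.28 for Usp18 and 0.23 for Herc6, and without day 5 replicate 1 Uba7 was at 0.45. Only Isg15 did not overlap with day 0, 1 of 5 members against 6.89% of genes. edgeR and DESeq2 each called 0 members, against 0% and 0.0710% of genes, and at an unadjusted p under 0.05 edgeR counted 0 members and 4.80% of genes. On day 7 the differences from day 0 lay between -0.09 for Herc6 and 0.26 for Isg15, with an adjusted p of 1.00 for all. Isg15 alone did not overlap, as did 5.02% of genes, and 0 members were called by edgeR (0% of genes) or DESeq2 (0.0323% of genes), or had an unadjusted p under 0.05 (2.07% of genes). The value of -0.08 for Uba7 changed sign when any of 3 tumors was left out.

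Between day 7 and day 3, a pair that shares the day 3 tumors with the comparison above, the means of the members came in the same order. Uba7 was at 0.338 of its day 3 level, Isg15 at 0.448, Usp18 at 0.472, Herc6 at 0.505 and Ube2l6 at 0.628. The log2 differences were -1.56 ± 0.41 for Uba7, -1.16 ± 0.44 for Isg15, -1.08 ± 0.40 for Usp18, -0.98 ± 0.24 for Herc6 and -0.67 ± 0.25 for Ube2l6 (edgeR, SE). Without day 3 replicate 2 they were -0.62 for Isg15, -0.68 for Usp18 and -0.44 for Ube2l6. Isg15, at -1.45, came before Uba7, at -1.33, when day 3 replicate 1 was omitted. In 5 of 5 members all day 7 tumors lay below all day 3 tumors, against 18.4% of genes. edgeR's adjusted p ran from 0.0832 to 0.101, with 0% of genes called, and 5 members and 35.5% of genes had an unadjusted p under 0.05. DESeq2 called 5 members and 21.0% of genes, with Ube2l6 only just past the threshold at an adjusted p of 0.0492. It called 0 members when day 7 replicate 1 or 3 was omitted, with 12 and 19 of all genes called. It called 2 members when day 0 replicate 3, day 3 replicate 1 or 2 or day 7 replicate 2 was omitted. Of all genes it then called 2543, 93, 5147 and 4143 in that order, against 3260 with all tumors. In the joint test of the 4 treated days, edgeR's adjusted p was 0.292 for each member and 0% of genes passed, 5 members and 16.2% of genes had an unadjusted p under 0.05, and DESeq2 called 5 members and 7.59% of genes. All comparisons with day 0 share the same 3 untreated tumors, and the comparisons with day 3 share the day 3 tumors, so they are not separate pieces of evidence.

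The ratio of each gene to Isg15 in the same tumor asked whether the machinery kept in step with the modifier. Usp18 did so most closely. The log2 ratio of Usp18 to Isg15 CPM lay between -0.77 and -0.39 in all 15 tumors, while Isg15 itself ranged from 35.1 to 269 CPM. Over the 15 tumors the log2 CPM of the pair had a Pearson r of 0.994, and 0.989 without day 1 replicate 3. Ube2l6 and Herc6 followed Isg15 with r = 0.916 and 0.921, and Uba7 with 0.683. The tumors share their treatment days, so these correlations describe the time course as much as the genes.

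Ube2l6 and Herc6 had their lowest ratios to Isg15 where Isg15 was highest. Isg15 is the divisor of these ratios, so its high values lower them by construction for any gene that follows it imperfectly. The log2 ratio of Herc6 to Isg15 was 0.27 ± 0.02 on day 0 and -0.46 ± 0.48 on day 1 (SD, n = 3). For Ube2l6 it was 0.89 ± 0.09 before treatment and 0.18 ± 0.54 on day 1, with 0.40 ± 0.42 by day 3 and 0.87 ± 0.37 by day 5. In day 1 replicate 3 it was -0.34 for Ube2l6 and -0.90 for Herc6, and in day 3 replicate 2, the tumor with the next highest Isg15, -0.05 and -0.69. Differences of the ratios between days did not pass the exact permutation test, with p = 0.135 for Ube2l6, 0.186 for Herc6, 0.291 for Usp18 and 0.365 for Uba7. For Ube2l6 the exact permutation p was 0.0371 without day 1 replicate 2.

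**Figure D3:**
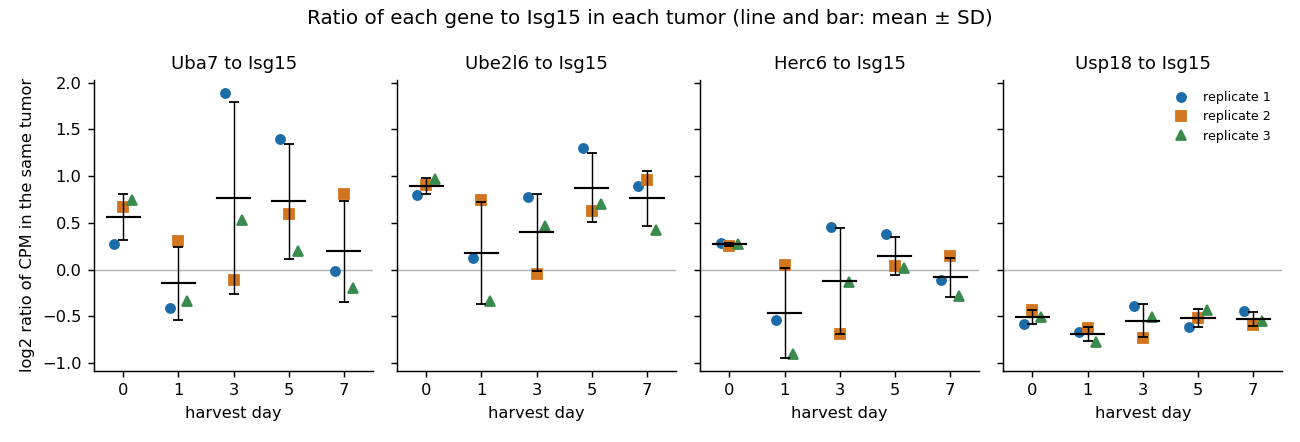
Log2 ratio of the CPM of Uba7, Ube2l6, Herc6 and Usp18 to that of Isg15 in the same tumor, by harvest day, with 1 point per tumor and the mean ± SD of 3. Usp18 forms a narrow band between -0.77 and -0.39, while Uba7 spreads from -0.41 to 1.89.

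Uba7 was the member with the lowest correlation to Isg15, and its ratio was read beside leukocyte markers. The log2 ratio of Uba7 to Isg15 was 1.89 in day 3 replicate 1, 1.40 in day 5 replicate 1 and 0.81 in day 7 replicate 2, the highest of each of those days. Leukocyte markers (Ptprc, Cd53, Laptm5, Coro1a and Lcp1) summed to 3036, 1657 and 1094 CPM in these tumors, also the highest of their days. The match was not particular to leukocytes, since other marker sums were highest of their days in the same tumors. Mesenchymal markers summed to 29014, 14350 and 10406 CPM there, endothelial markers to 501, 267 and 165 CPM and adipocyte markers to 273, 59.3 and 34.1 CPM. Days 0 and 1 went otherwise, so the highest ratio and the highest leukocyte sum fell in the same tumor on 3 of 5 days. On day 1, replicate 3 had the most leukocyte marker RNA, 1384 CPM, with a ratio of -0.34, below replicate 2 at 0.30. Among untreated tumors, replicate 2 had the most, 905 CPM, with a ratio of 0.66, below replicate 3 at 0.74 with 871 CPM. From the first harvest day to the last, the leukocyte sum averaged 819, 923, 1960, 1305 and 788 CPM. All 5 leukocyte markers had a mean above day 0 on days 1, 3 and 5. On day 1 the sums were 619, 766 and 1384 CPM, against 682, 905 and 871 CPM before treatment. Only replicate 3 of day 1 lay above the untreated tumors. The part of leukocyte content in the level of any member was not tested. Without day 3 replicate 1, the correlation of Uba7 with Isg15 was 0.804 over 14 tumors, and without day 1 replicate 3 it was 0.563.

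**Figure D4:**
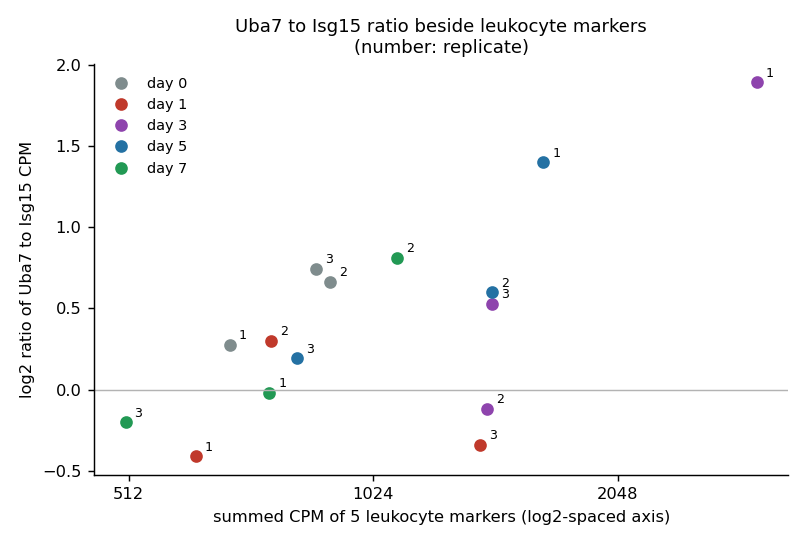
Log2 ratio of Uba7 to Isg15 CPM (vertical) against the summed CPM of 5 leukocyte markers (horizontal, log2-spaced), 1 point per tumor, coloured by harvest day and numbered by replicate. Day 3 replicate 1 and day 5 replicate 1 lie at the upper right, and day 1 replicate 3 and day 3 replicate 2 lie low despite sums of 1384 and 1413 CPM.

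Among all other genes tested, those most like the mean Z-score of the members over the 15 tumors included known interferon-induced genes. Oasl2, of the oligoadenylate synthetase family, came first with a Pearson r of 0.987, followed by Xaf1 (0.986), Ifi44 (0.985), the RNA sensor Ifih1 (0.984), Misp (0.982), Rtp4 (0.981), Oas3 and Ifi204 (0.980 each), and Lgals9 and Oas1a (0.980 each). Taken singly, Isg15 was most like Usp18 and, outside the members, Cmpk2 (r = 0.986). Usp18 was most like Isg15 and then Mx2 (0.984), Ube2l6 was most like Ifitm3 (0.991), Herc6 like Oasl2 (0.987) and Uba7 like Trafd1 (0.989). These matches were picked as the highest of all genes tested over 15 tumors, so a high r alone does not show a particular partner. Among the members, Uba7 had r = 0.887 with Herc6 and 0.819 with Ube2l6. Its values with Usp18 and Isg15 were lower, at 0.683 for Isg15, so it was loose with those members and not with the whole set.

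The other genes around the pathway were taken as lists, described by counts and medians. The median over all genes tested was -0.000244 on day 1 and -0.02 on day 3 (log2, edgeR). Of all genes tested, 3.16% had an unadjusted edgeR p under 0.05 on day 1 and 30.0% on day 3. DESeq2 called 0.258% and 12.9% of them. The 5 members had a median difference from day 0 of 1.13 on day 1 and 1.31 on day 3. Upstream, the 7 genes of the interferon receptor, its kinases and ISGF3 had medians of 0.31 and 0.63, and 7 of 7 were above 0 on both days. edgeR called none of them after adjustment, with 3 of 7 at an unadjusted p under 0.05 on day 1 and 5 of 7 on day 3, and DESeq2 called 0 on day 1 and Ifnar2, Stat2 and Irf9 on day 3. Without day 1 replicate 3 the day 1 median was 0.02, with 5 of 7 above 0 and 1 of 7 at an unadjusted p under 0.05. The day 3 median was 0.54 when day 3 replicate 1 was omitted, with 2 of 7 at an unadjusted p under 0.05.

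Within ISGF3, Stat2 had the highest difference of that list on both days. It was at 134, 152 and 140 CPM in untreated tumors, 194, 259 and 457 CPM on day 1 and 249, 341 and 241 CPM on day 3, log2 differences of 1.10 ± 0.31 and 0.96 ± 0.30 (edgeR, SE, adjusted p = 0.926 and 0.115). Irf9 differed by 0.54 and 0.58. Without day 1 replicate 3 the day 1 difference was 0.68 for Stat2 and 0.33 for Irf9. The receptor chains were not tested against each other. Ifnar1 was at 0.04 on day 1, the lowest of the list, and 0.31 on day 3, and Ifnar2, the chain that Usp18 binds, was at 0.31 and 0.93. Jak1 was lowest on day 3, at 0.23. These day 3 values rested in part on day 3 replicate 1, without which they were 0.15 for Ifnar1, 0.54 for Ifnar2 and 0.09 for Jak1, and without day 1 replicate 3 the day 1 values of Ifnar1 and Ifnar2 were -0.05 and -0.04.

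Of the nearest relatives of the enzymes in the ubiquitin pathway, the activating enzyme Uba1 differed from day 0 by 0.09 ± 0.16 on day 1 and -0.11 ± 0.16 on day 3, and Herc4 by -0.11 ± 0.09 and 0.01 ± 0.09 (log2, edgeR, SE). The day 3 values were 0.08 for Uba1 and -0.05 for Herc4 when day 3 replicate 1 was omitted. Herc3, another ligase of the HERC family, named after its values were seen, differed by 0.14 ± 0.24 on day 1 and 0.62 ± 0.24 on day 3 (edgeR adjusted p = 1.00 and 0.132), and by 0.35 on day 3 without day 3 replicate 1. Ube2l3, the E2 closest to Ube2l6, differed by 0.14 ± 0.09 and 0.26 ± 0.09, with 121, 123 and 127 CPM on day 0 and 159, 148 and 135 CPM on day 3. Over all 33 genes of ubiquitin and other ubiquitin-like modifiers, the median was -0.03 on day 1 and -0.15 on day 3, and 14 and 9 of 33 were above 0. edgeR called none. At an unadjusted p under 0.05 it counted 0 higher and 3 lower on day 1, and 3 higher and 2 lower on day 3. DESeq2 called 0 on day 1 and Ube2l3 alone on day 3. Over all genes tested, 3.16% and 30.0% had such a p, and DESeq2 called 0.258% and 12.9%. The day 3 median rested on day 3 replicate 1. Without that tumor it was -0.04, with 14 of 33 above 0 and 1 higher and 1 lower at an unadjusted p under 0.05. Without day 1 replicate 3 the day 1 median was 0.007, with 17 of 33 above 0 and 0 at an unadjusted p under 0.05. Ubd, another ubiquitin-like modifier that cytokines induce, was the highest of the list on both days, at 0.50 ± 0.57 and 1.00 ± 0.57. Without day 1 replicate 3 it was at 0.06 on day 1, below Uba1 at 0.10. Herc2 was lowest on day 1, at -0.36, or -0.22 without that tumor, and Uba6, the activating enzyme of Ubd, was lowest on day 3, at -0.63 (unadjusted p = 0.0331, edgeR adjusted p = 0.145), or -0.44 without day 3 replicate 1 (unadjusted p = 0.126).

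Of 11 other genes linked to ISG15, such as further ligases and proteases, the median was 0.01 on day 1 and -0.06 on day 3. Trim25, a ligase that is itself interferon-induced, was the highest on day 1 at 0.60 ± 0.19, with 175, 157 and 162 CPM in untreated tumors and 222, 210 and 319 CPM on day 1 (edgeR adjusted p = 1.00), and at 0.39 without day 1 replicate 3. Arih1, a ligase of the ubiquitin pathway, was at 0.01 and -0.21, and at -0.06 on day 3 without day 3 replicate 1. Usp13 was the lowest of the list on day 1, at -0.25 (-0.74 without day 1 replicate 3), and the highest on day 3, at 2.06 ± 0.99. That day 3 value came from 1 tumor. Usp13 was at 15.7 CPM in day 3 replicate 1 and at 1.91 CPM or less in the other 14, and without that tumor its difference was -0.19. Skp2 was lowest on day 3 at -0.45, and at -0.17 without the same tumor. edgeR called none of the 11 on either day. At an unadjusted p under 0.05 it counted 1 higher and 1 lower on day 1 and 3 higher and 0 lower on day 3. Without day 3 replicate 1 the day 3 count was 1 higher. DESeq2 called Itgal on day 3. Over all genes tested, 3.16% on day 1 and 30.0% on day 3 had such a p, and DESeq2 called 12.9% on day 3.

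For 16 reported protein substrates of ISG15 in the table the median was 0.03 on day 1 and 0.07 on day 3. Mx1, an antiviral GTPase, led on both days. It was at 22.7, 31.5 and 29.2 CPM in untreated tumors, 52.8, 38.9 and 169 CPM on day 1 and 65.3, 101 and 53.3 CPM on day 3, so that the groups did not overlap. Its log2 differences were 1.65 ± 0.45 and 1.40 ± 0.45 (edgeR, SE, adjusted p = 0.926 and 0.115), and 0.72 on day 1 without day 1 replicate 3. edgeR called none, with 5 higher and 0 lower at an unadjusted p under 0.05 on day 1 and 5 higher and 2 lower on day 3. DESeq2 called Ddx58 and Ifih1 higher on day 1, and those genes and Mx1 higher and Mapk3 lower on day 3. The shares over all genes tested were 3.16% and 30.0% at an unadjusted p under 0.05 in edgeR, and 0.258% and 12.9% called by DESeq2. Jak1 is among the genes that are also in the receptor list.

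**Figure D5:**
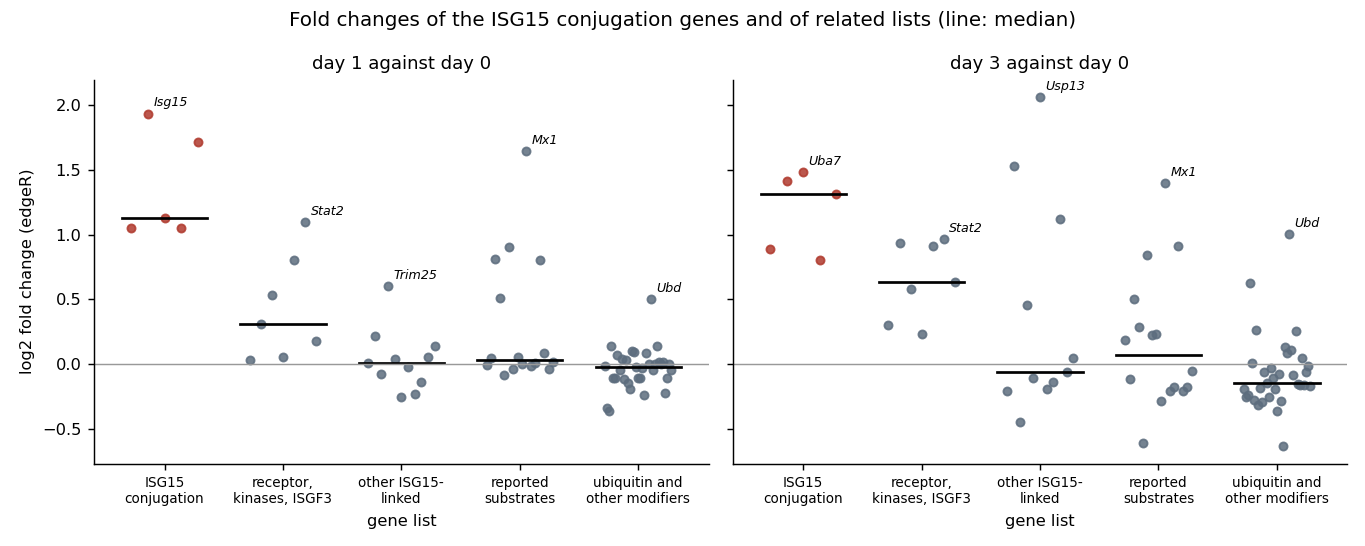
Log2 fold change (edgeR) against day 0 on day 1 (left) and day 3 (right) for each gene of the 5 lists, with a line at the list median and the highest gene of each list named. All 5 members lie above 0.8 on both days, while the ubiquitin list centres on -0.03 and -0.15. Its day 3 median is -0.04 without day 3 replicate 1, on which the Usp13 point also rests.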

How the data were processed

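Poly(A) RNA of 15 tumors was sequenced as single-end Illumina reads. The authors estimated transcript abundance with kallisto and deposited expected counts summed per gene, as whole numbers, with 1 column per tumor. The submitters' processing notes name GRCm38, and the transcript set was not given in the sources used here. Estimated counts divide shared reads among transcripts, which makes overlapping genes uncertain. Of 32544 entries, 9156 had no count, and 1 entry with a date for a name (at most 0.0268% of a tumor's counts) was left out. Names of 31401 entries matched GENCODE symbols. Totals were 23.7 to 31.9 M counts, and limits from 3 counts cover counting error only. Replicates differed by more than counting noise (chi-square per degree of freedom from 9.32 to 269).

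Genes above the study's CPM minimum in at least 3 tumors were kept, 15494 in all. edgeR 4.0.16 (R 4.3.3) fitted all 15 tumors with TMM factors and the harvest day, and the quasi-likelihood test was adjusted by Benjamini-Hochberg over all genes tested, with a threshold of 0.05. DESeq2 1.42.0 and limma 3.58.1 were alternatives. The study's test for the time course was not stated. Levels used log2 CPM with a prior count of 2, and exact permutation tests compared the variance between days, without direction. With 3 tumors against 3, pairs of days were described by overlap. Programs were tested on simulated data. Members and lists were chosen with earlier results of these data known. The rule named all members, the highest and lowest gene of each list on days 1 and 3, called genes, and set relatives (Uba1, Ube2l3, Herc4, Ubd, Trim25, Arih1, Stat2, Irf9, Ifnar1 and Ifnar2). It also named the 10 genes with the highest Pearson correlation to the mean Z-score of the members and the gene most like each member. Some genes that the rule names are not reported here. Other filters, scalings and priors, a replicate block and leaving out each tumor were tried as alternatives.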

Additional observations from a re-analysis of the deposited data

How the results depend on the processing

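edgeR called 0 members in every comparison, and the count was also 0 with limma-voom, a robust prior, DESeq2's size factors, filterByExpr, no filter and only the tumors of the days compared. DESeq2 called 4 members on day 1, 5 on day 3, 5 from day 3 to day 7 and 5 in the joint test. Its shares over all genes were 0.258%, 12.9%, 21.0% and 7.59% in that order. Leaving out each tumor in turn gave edgeR 0 to 1 members on day 3 and 0 to 2 from day 3 to day 7 (Herc6 without day 1 replicate 3, Uba7 and Herc6 without day 3 replicate 3). Without day 1 replicate 3 edgeR called 61 of all genes on day 3 and 58 from day 3 to day 7. Without day 3 replicate 3 it called 2104 from day 3 to day 7. Leaving out each tumor gave DESeq2 0 to 4 members on day 1, 0 to 5 on day 3, 0 to 5 from day 3 to day 7 and 3 to 5 in the joint test. DESeq2 called 0 members on day 1 when day 0 replicate 1 or 3 or day 1 replicate 3 was omitted, 0 on day 3 when day 0 replicate 1 or 3 was, and 0 from day 3 to day 7 when day 7 replicate 1 or 3 was. In that order, it called 1, 11 and 5 of all genes on day 1 and 13 and 72 on day 3. From day 3 to day 7 it called 12 and 19. Without day 3 replicate 1 and day 1 replicate 3 together, a choice made after seeing the data like the DESeq2 omissions and those for the gene lists, edgeR called 3 members on day 3 and 3 from day 3 to day 7, and DESeq2 called 2 on day 1. Of all genes, these fits called 71, 60 and 22 in the same order. The cause was not tested.

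Day 3 minus day 1 reversed without day 1 replicate 3 for Isg15, Ube2l6, Herc6 and Usp18, and without both tumors, to 0.53, 0.25, 0.32 and 0.52. Omitting each tumor gave -1.06 to 0.25 for Isg15, -0.48 to 0.11 for Ube2l6, -0.36 to 0.25 for Herc6 and -0.80 to 0.29 for Usp18. The day 7 difference of Uba7 from day 0 ranged from -0.41 to 0.079, and was above 0 when 1 of 3 tumors (day 0 replicate 2 and day 7 replicates 1 and 3) was omitted. The exact permutation p of the level over days was 0.117 for Isg15, 0.0528 for Uba7, 0.05003 for Ube2l6 and 0.0776 for Usp18 on CPM in place of log2 CPM. Leaving out each tumor, this p ranged from 0.00992 to 0.0504 for Isg15, 0.0109 to 0.0725 for Uba7, 0.0114 to 0.0529 for Ube2l6 and 0.0120 to 0.0480 for Usp18, and that of the ratio of Ube2l6 to Isg15 from 0.0371 to 0.306.

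Replicate numbers did not pair the tumors. Over 30 pairs of tumors with the same number, deviations from the day means correlated between -0.62 and 0.51, with 9 pairs over 0.1. For each tumor, these correlations with tumors of other days were averaged by replicate number. The mean was highest for the tumor's own number, out of 3 numbers, in 2 of 15 tumors. With a replicate block edgeR called 0 members in every comparison, and Isg15 differed from day 0 by 1.36 on the log2 scale on day 3.

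Each day had 3 tumors, and the counts of the members lay far above the limit that 3 counts set. The dose remains uncertain, and the strandedness of the counting and the share of leukocyte RNA in each member remain unknown.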
